A study of Mus musculus with 338 samples.

Results

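The Reg genes encode small secreted proteins of the C-type lectin kind, first described in regenerating pancreatic islets. The 6 genes named Reg1, Reg2, Reg3a, Reg3b, Reg3d and Reg3g were taken by symbol from a table of read counts in mouse pancreatic islets, which holds 21382 genes in all. All 6 were among the 16498 genes that passed the filter on low counts, as did Reg4, a more distant relative. Their levels are given as counts scaled to 1000000 reads assigned to genes (CPM) in every library, beside the acinar enzymes of the same library, since islets picked by hand can carry exocrine tissue.

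Each of 338 libraries came from the islets of 1 mouse, at least 150 islets per mouse, and was prepared from 200 ng of total RNA. Mice belonged to 1 of 6 inbred strains (129S2/SvPas, A/J, AKR/J, BALB/cJ, C57Bl/6J and DBA/2J) and were fed a diet rich in fat and sugar (HFHS, 172 mice) or regular chow (RC, 166 mice) for 2, 10, 30 or 90 days. This gave 48 groups of 4 to 11 mice, and no group carries a transgene or deletion per the labels. Age and sex were not given in the sources used here. Reads assigned to genes ran from 9526926 to 50751894 per library. The islet hormones were present in every library, with a median of 82280 CPM for Ins1, 135833 for Ins2, 35486 for Gcg, 3306 for Sst and 3518 for Ppy. In bulk RNA of this kind, fewer cells of a type and less RNA per cell cannot be told apart.

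Reg1 and Reg2 proteins are made by the acinar cells that secrete digestive enzymes, and both rise in the pancreas after injury. Reg3b and Reg3g are best known as antibacterial lectins of the gut lining, where interleukin 22 acting through the transcription factor STAT3 induces them, and Reg3b is also called pancreatitis-associated protein because acinar cells release it under stress. Reg3a and Reg3d are less studied pancreatic relatives, and Extl3, a heparan sulfate enzyme of the cell surface, has been put forward as a Reg receptor.

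In the RefSeq tables of build GRCm38.p6, all 6 genes had an entry, and they lie together on chromosome 6. The reads had been aligned to another build, mm9, so the RefSeq coordinates locate sequence only. The promoters of 4 members are shown here, as 250 bases upstream of the start of transcription, 5′ to 3′ on the strand of the gene. Reg1 and Reg2 are shown because they are the most alike in sequence yet differed between strains, and Reg3b and Reg3g because they varied together. Capitals mark 2 short motifs searched on both strands, TGGGAA (also read as TTCCCA) and TTCNNNGAA, the letters of a STAT motif. Reg1 is at chr6:78425733-78425982 on the plus strand, Reg2 at chr6:78404905-78405154 on the plus strand, Reg3b at chr6:78370635-78370884 on the plus strand and Reg3g at chr6:78468875-78469124 on the minus strand.
Reg1: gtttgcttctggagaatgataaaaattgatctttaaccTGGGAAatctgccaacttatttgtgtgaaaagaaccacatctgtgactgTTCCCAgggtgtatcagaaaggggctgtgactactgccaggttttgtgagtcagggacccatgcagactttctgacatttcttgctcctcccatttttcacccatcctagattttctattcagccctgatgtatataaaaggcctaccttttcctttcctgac
Reg2: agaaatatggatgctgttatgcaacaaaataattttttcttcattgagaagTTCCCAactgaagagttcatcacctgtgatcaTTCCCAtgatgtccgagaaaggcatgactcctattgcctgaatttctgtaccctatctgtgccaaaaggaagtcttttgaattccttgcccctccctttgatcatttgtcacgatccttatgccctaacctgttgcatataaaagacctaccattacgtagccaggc
Reg3b: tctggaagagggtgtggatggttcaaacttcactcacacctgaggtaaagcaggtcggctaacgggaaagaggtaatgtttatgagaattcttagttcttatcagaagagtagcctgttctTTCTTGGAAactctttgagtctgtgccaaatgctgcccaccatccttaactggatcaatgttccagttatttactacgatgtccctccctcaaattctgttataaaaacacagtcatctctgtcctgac
Reg3g: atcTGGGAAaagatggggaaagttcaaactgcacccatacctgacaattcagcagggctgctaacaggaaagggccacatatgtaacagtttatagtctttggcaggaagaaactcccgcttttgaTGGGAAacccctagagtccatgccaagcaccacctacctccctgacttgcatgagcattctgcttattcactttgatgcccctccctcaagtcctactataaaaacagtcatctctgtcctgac

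TTCNNNGAA was found in the windows of Reg3b, 129 bases before the start, and Reg3d, 238 bases before it, against 7.02% of all 32851 mouse promoters of the same length. The Reg3d match, TTCCCAGAA, overlaps a match of TGGGAA on the other strand. TGGGAA was found in every member's window except that of Reg3b, against 21.6% of all promoters. The E-box letters CANNTG, which basic helix-loop-helix factors of acinar cells bind, were found in all 6 windows and in 66.2% of all promoters. A match of letters is a description of the sequence and not a site, and letters that are missing from a window say nothing of the factor.

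The messenger RNAs are alike enough to matter for counting. Reg1 and Reg2 transcripts matched at 78.9% of aligned bases, Reg3a and Reg3b at 75.5%, and Reg3b and Reg3g at 74.4%, with an unbroken identical run of 35 bases between the last 2. How reads shared by these copies were counted was not given in the sources used here, so small shares of a weak member's counts next to a strong one are uncertain. The library kit keeps no strand, and reads of an antisense or overlapping transcript cannot be told apart from those of the gene.

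Reg1 was by far the most abundant member. It was counted in every library, from 1.08 to 3304 CPM with a median of 100, and per kilobase of transcript its median level was 110.8 CPM. Reg2 followed at 6.38 CPM per kilobase, then Reg3d at 1.72, Reg3b at 1.3, Reg3g at 0.275 and Reg3a at 0.245. Reg2 had a median of 4.45 CPM and a highest level of 1222. The 4 Reg3 genes were near the limit of detection in many libraries. Reg3a had no count in 49 libraries and more than 3 counts in 194, and Reg3g had none in 50 and more than 3 in 207. A level of 0 means that no read was counted at that depth, and levels from 3 or fewer counts lie at the floor. Reg3b was without a count in 9 libraries and Reg3d in 1. Their highest levels were 61.7 CPM for Reg3a, 477 for Reg3b, 91.1 for Reg3d and 184 for Reg3g. For 5 members the highest library of the series was of the C57Bl/6J mice on HFHS for 30 days, mouse 1HF148 for Reg1, Reg2 and Reg3d and mouse 1HF147 for Reg3b and Reg3g. The highest Reg3a came from mouse 6RC89, a 129S2/SvPas mouse on RC at day 90. The highest levels thus came from few mice, and medians are given throughout beside the extremes. Reg4 had no count in the median library, and the putative receptor Extl3 lay between 11.5 and 92.9 CPM.

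**Figure D1:**
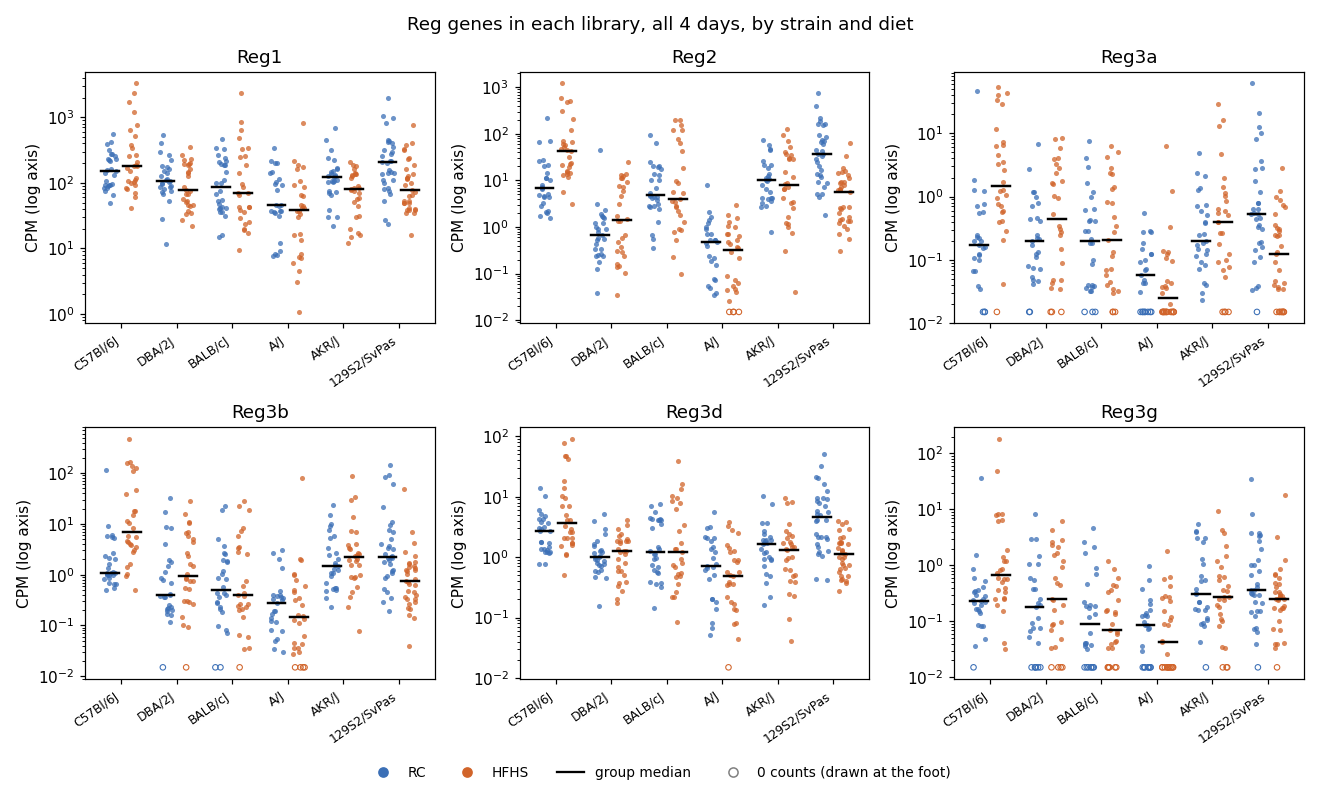
CPM of each Reg gene (log axis) in every library, all 4 days together, by strain on the horizontal axis and by diet (blue RC, orange HFHS). Bars are group medians and open circles are libraries with 0 counts, drawn at the foot. In A/J mice Reg2 had medians of 0.468 CPM on RC and 0.316 on HFHS, and in 129S2/SvPas mice 36.8 and 5.61.

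Some libraries stood apart and touch results below. In 9 libraries, 16 genes that separate the strains were closer to the pattern of a strain other than the one on the label. Of these, 5 libraries of 129S2/SvPas at day 2 (mice 6RC2, 6RC5, 6RC6, 6HF5 and 6HF6) came nearest to C57Bl/6J, 3 labelled C57Bl/6J at day 90 (1HF155, 1HF156 and 1RC134) were nearest to 129S2/SvPas, and 1RC133 was nearest to BALB/cJ. Counts depended on the GC content of genes by more than 0.5 log2 per 10 GC points in 37 libraries, the 9 included. The acinar enzyme genes, 32 in number, took 0.00564 to 12.2% of reads (median 0.48%). The intestinal genes Fabp2, Sis and Alpi summed to over 5 CPM in 79 libraries, 39 of 172 on HFHS and 40 of 166 on RC. Median levels in those 79 and in the other 259 libraries were 2.67 and 0.774 CPM for Reg3b, 0.721 and 0.146 for Reg3a, 0.694 and 0.155 for Reg3g, 9.62 and 4.25 for Reg2, 150.7 and 92.7 for Reg1, and 1.7 and 1.29 for Reg3d. Every member was thus higher at the median where intestinal RNA was present, and whether the gut genes account for it was not tested.

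How closely the family follows acinar RNA was asked next. Prss1 itself was a poor gauge, with a count in only 196 libraries, a median of 1 count and a highest level of 27.6 CPM. After the mean of each group was removed from log2 CPM, Pearson's correlation with Prss1 over 338 mice was 0.416 for Reg1, 0.412 for Reg3d, 0.347 for Reg3a, 0.312 for Reg2, 0.288 for Reg3g and 0.252 for Reg3b. Spearman's rho was 0.459, 0.441, 0.359, 0.31, 0.292 and 0.261 in that order. The two-sided permutation p was 1e-05, the smallest that 100000 permutations can give, for 5 members and 2e-05 for Reg3b, and adjusted over the 6 relations these were 1.2e-05 and 2e-05. Without the 2 mice farthest from the median of Prss1, r was 0.415, 0.424, 0.356, 0.313, 0.294 and 0.259. Within the 6 strains taken one at a time rho with Prss1 stayed above 0 for every member, from 0.0235 for Reg3g to 0.633 for Reg1.

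The abundant acinar enzymes gave a sharper picture, in which the family split. Against the mean log2 level of the 32 acinar genes, r was 0.904 for Reg1 and 0.869 for Reg3d, but 0.618 for Reg2, 0.495 for Reg3b, 0.485 for Reg3a and 0.461 for Reg3g (permutation p 1e-05 for each, the smallest possible). Against Prss2, the main trypsinogen here with a median of 278 CPM, r was 0.902, 0.876, 0.614, 0.489, 0.472 and 0.453 in the same order. A gain of 1 log2 unit in the acinar mean went with 1.01 for Reg1 and 0.97 for Reg3d. The spread of Reg1 between mice of a group, an SD of 1.35 log2 units, fell to 0.576 once the acinar mean was taken out, and that of Reg3d from 1.34 to 0.666. For Reg3b the SD went from 1.84 to 1.6, for Reg3g from 1.67 to 1.49, for Reg3a from 1.77 to 1.55 and for Reg2 from 1.74 to 1.37. Reg1 and Reg3d therefore varied from mouse to mouse much as the acinar genes did. Over all strains together, most of the spread of Reg2, Reg3a, Reg3b and Reg3g was not shared with the acinar mean. The relation was closer in some strains. In C57Bl/6J r with the acinar mean was 0.745 for Reg2, 0.793 for Reg3a, 0.721 for Reg3b and 0.615 for Reg3g. In DBA/2J it was 0.53, 0.35, 0.409 and 0.344 in that order, and for Reg2 in AKR/J it was 0.793.

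**Figure D2:**
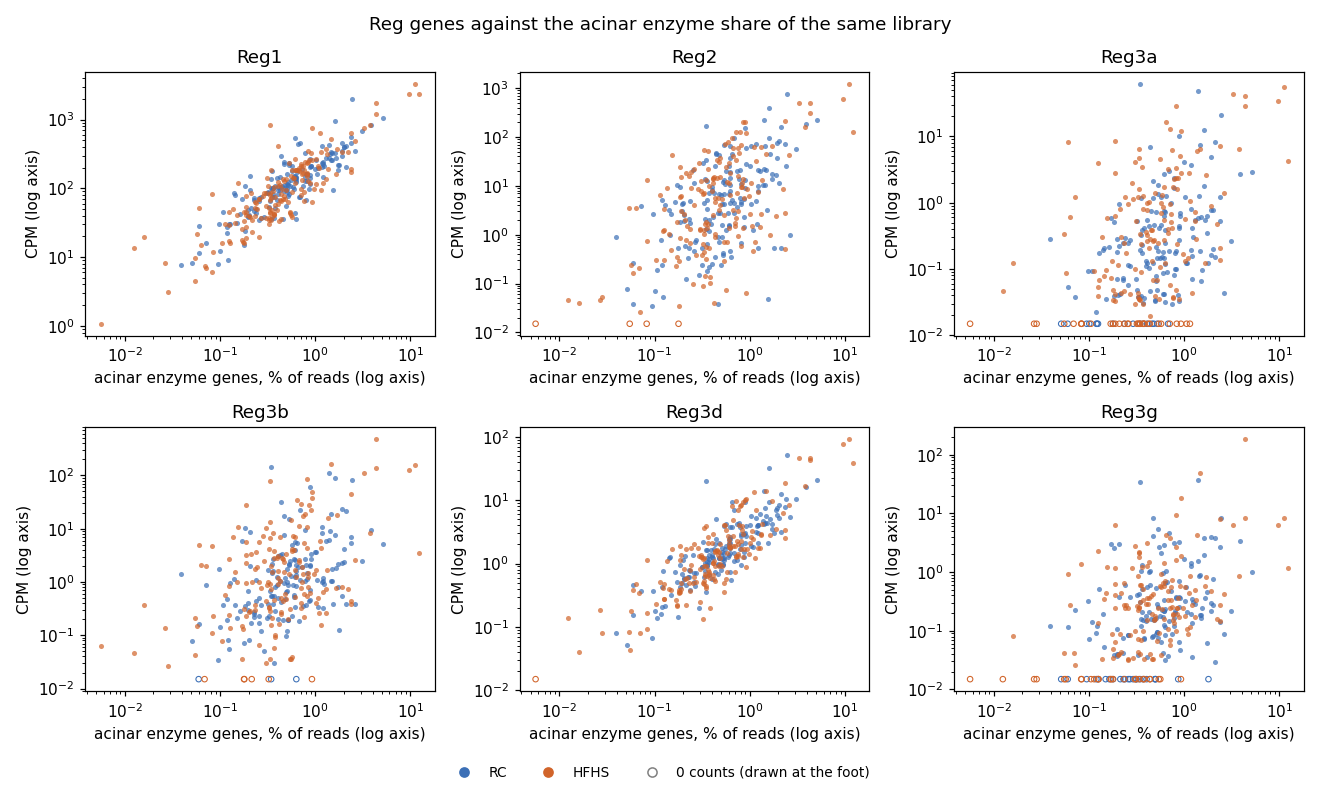
CPM of each Reg gene (vertical, log axis) against the share of reads in the 32 acinar enzyme genes (horizontal, percent, log axis) in each library, by diet. Open circles at the foot are libraries with 0 counts. Reg1 and Reg3d lie along a narrow band, whereas at any given acinar share Reg2 and the other Reg3 genes cover a wide range of levels.

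The members also fell into groups among themselves. With group means removed, Reg1 and Reg3d were correlated at r = 0.889, Reg3b and Reg3g at 0.853, and Reg3a and Reg3b at 0.852 over the 338 mice, and the weakest of the 15 pairs was Reg2 with Reg3g at 0.559. These are descriptions, since members share libraries and, in part, sequence. Outside the family, the genes nearest to Reg1 by Spearman's rho were Spink3, a trypsin inhibitor (0.944), Zg16 (0.943), Cpb1 (0.937), Cuzd1 (0.936) and Pnliprp1 (0.935), products of acinar cells. Nearest to Reg3d were Dmbt1 (0.921), Gp2 (0.915), Pnliprp1 (0.915), Cuzd1 (0.911) and Cpb1 (0.911). Reg2 was nearest to Dmbt1 (0.685), Pnliprp1 (0.653), Try5 (0.652), Gp2 (0.636) and Klk1 (0.63). The subunit of the interleukin 22 receptor Il22ra1 was among the 5 nearest to Reg3a (0.6), Reg3b (0.598) and Reg3g (0.606), beside Spink3 (0.596, 0.621 and 0.605), Ggt1 (0.588, 0.601 and 0.635) and Dmbt1 (0.581, 0.611 and 0.585). Il22ra1 was not particular to these 3 members. Its rho was higher with Reg1 (0.752) and Reg3d (0.631), where other genes ranked above it, and was 0.488 with Reg2. Serpinb1a completed the list of Reg3a (0.564) and Reg3g (0.603), and Zg16 that of Reg3b (0.593).

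Between strains on RC, Reg2 showed the widest range of the family. Its lowest, median and highest levels were 1.83, 36.8 and 752 CPM in 129S2/SvPas (32 mice), 0.776, 10.3 and 75.3 in AKR/J (27), and 1.54, 6.88 and 221 in C57Bl/6J (27). In BALB/cJ (28 mice) they were 0.356, 4.82 and 94, in DBA/2J (27) 0.0389, 0.659 and 44.7, and in A/J (25) 0.0338, 0.468 and 8.12. The highest 129S2/SvPas level was that of 6RC5, nearest to C57Bl/6J, and the 29 RC mice left without such libraries ran from 1.83 to 222.6 CPM (median 36.6). Most 129S2/SvPas mice thus exceeded every A/J mouse, and AKR/J, C57Bl/6J and BALB/cJ overlapped widely in between. Set against the mean of the other 5 strains, Reg2 was higher in 129S2/SvPas by 4.10 log2 (SE 0.285, adjusted p = 5.72e-34), in C57Bl/6J by 1.33 (SE 0.315, 0.00016) and in AKR/J by 1.31 (SE 0.315, 0.000163). It was lower in A/J, with a log2 fold change of -4.25 (SE 0.573, 2.44e-11), and in DBA/2J at -3.17 (SE 0.487, 2.94e-09). These are edgeR quasi-likelihood tests with Benjamini-Hochberg adjustment over 16498 genes, called at an adjusted p under 0.05 and, for strains, a change of 1 or more on the log2 scale.

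Reg2 relative to Reg1 in the same library separated the strains as well. The median ratio on RC was 0.198 in 129S2/SvPas, 0.087 in AKR/J, 0.0662 in BALB/cJ, 0.0446 in C57Bl/6J, 0.00607 in DBA/2J and 0.0059 in A/J. Low Reg2 in DBA/2J and A/J stood beside Reg1 of 106 and 45.9 CPM at the median. Relative to Prss2 in the same library, the median of Reg2 on RC was 0.077 in 129S2/SvPas and 0.00153 in A/J. With the acinar mean as a covariate, Reg2 differed by 3.03 in 129S2/SvPas (adjusted p = 3.4e-27), -3.25 in A/J (1.03e-10) and -2.26 in DBA/2J (7.58e-08), while the C57Bl/6J value was 0.89 and no longer reached the size of 1. Without the 9 libraries nearest to another strain the C57Bl/6J value was 0.91, likewise below that size.

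The other members shared the ends of the order. The median on RC was highest in 129S2/SvPas and lowest in A/J for each of them, at 206 and 45.9 CPM for Reg1, 0.533 and 0.0572 for Reg3a, 2.25 and 0.274 for Reg3b, 4.59 and 0.724 for Reg3d, and 0.359 and 0.0857 for Reg3g. Between those ends the interquartile ranges of the 4 other strains overlapped for each of these members. In 129S2/SvPas all 6 members were called higher, against 2.95% of all genes called in either direction. Their log2 fold changes were 1.36 for Reg1, 2.51 for Reg3a, 2.45 for Reg3b, 2.12 for Reg3d and 1.63 for Reg3g, beside 4.10 for Reg2. The acinar genes moved with them, since 21 of 32 were higher, with a median of 1.09 over the list, and Prss2 was higher by 1.37. With the acinar mean as a covariate Reg1 (0.29) and Reg3g (0.97) were no longer called, and without the 9 mismatched libraries Reg1 was at 0.91.

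In A/J all 6 members were called lower, against 3.11% of all genes. Log2 fold changes were -1.24 for Reg1, -2.40 for Reg3a, -2.73 for Reg3b, -1.22 for Reg3d and -2.29 for Reg3g. Here the acinar genes did not follow as closely, with 2 of 32 lower, a list median of -0.25 and Prss2 at -0.36 (adjusted p = 0.291). With the acinar mean as a covariate Reg2, Reg3a (-1.62), Reg3b (-1.99) and Reg3g (-1.75) were still called, and Reg1 (-0.70) and Reg3d (-0.73) fell short of the size of 1. In DBA/2J Reg2 and Reg3d (-1.16, adjusted p = 0.000688) were lower, against 4.67% of all genes. There 7 of 32 acinar genes were lower, with a median of -0.86, and Reg3d was at -0.23 with the acinar covariate. Reg2 was the only member called in C57Bl/6J (3.12% of all genes) and in AKR/J (3.55%). In AKR/J Reg3g was at 0.91 (adjusted p = 0.00869), below the size of 1. It was called there with limma, the DESeq2 Wald test and the acinar covariate, among others. In C57Bl/6J Reg3b and Reg3g were called beside Reg2 without libraries with intestinal genes. In BALB/cJ no member was called, against 2.82% of all genes, and 1 had an unadjusted p under 0.05 and none passed with limma or DESeq2.

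The question of the study was how the diet acts on islets over time in each strain. Within strains, the 6 members were each compared between HFHS and RC in 24 combinations of strain and day, and 23 of these comparisons were called, 13 higher and 10 lower on HFHS. Over the same 24 combinations 10.4% of all gene comparisons were called. All lay in 9 of the 24 groups. Reg3b was called in 6, Reg2 in 5, Reg3a and Reg3d in 4 each, Reg3g in 3 and Reg1 in 1. The diet groups did not overlap in 4 of all these comparisons, called or not, namely Reg3a and Reg3b in C57Bl/6J at day 10 and Reg2 and Reg3d in 129S2/SvPas at day 30. Of all gene comparisons, 4.63% showed no overlap.

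**Figure D3:**
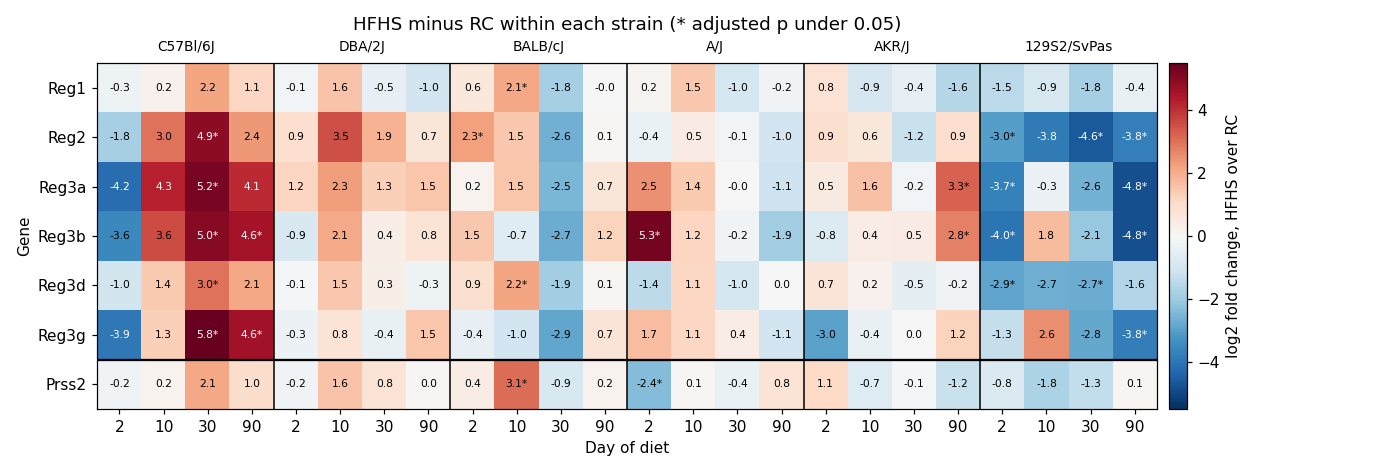
Log2 fold change of HFHS over RC (colour scale, red higher and blue lower on HFHS) for the 6 Reg genes and the acinar enzyme Prss2 (rows) in each strain and at each day of diet (columns). An asterisk marks an adjusted p under 0.05 (edgeR). Starred values are positive in C57Bl/6J at days 30 and 90 and negative in 129S2/SvPas at days 2, 30 and 90.

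In C57Bl/6J mice at day 30 all members but Reg1 rose on HFHS, against 1.62% of all genes called. Reg2 ran from 22.3 to 1222 CPM (median 189) in 8 HFHS mice and from 2.25 to 26 (median 10.8) in 8 RC mice, a log2 fold change of 4.91 (SE 0.929, adjusted p = 0.000279). The HFHS mouse with the least Reg2 was the only one within the RC range. Reg3b ran from 5.44 to 477 CPM (median 73.1) against 0.508 to 9.11 (median 3.86), a change of 5.03 (SE 1.04, adjusted p = 0.00129). Reg3a ran from 0.94 to 54.9 CPM (median 16.1) against 0 to 1.27 (median 0.38), a change of 5.23 (SE 1.08, adjusted p = 0.00129). For Reg3a 7 of 8 HFHS mice and for Reg3b 6 of 8 lay above every RC mouse. Reg3d ran from 2.07 to 91.1 CPM (median 25.9) against 1.23 to 10.4 (median 4.47), a change of 2.99 (SE 0.678, adjusted p = 0.00421). Reg3g ran from 0.0313 to 184 CPM (median 3.6) against 0.0363 to 1.54 (median 0.238), a change of 5.83 (SE 1.08, adjusted p = 0.000198). Reg1 ran from 69.2 to 3304 CPM (median 789) against 83.8 to 555 (median 277), and its change of 2.17 missed the threshold (adjusted p = 0.0688).

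The 8 HFHS mice fell apart in level. Mice 1HF147, 1HF148, 1HF149 and 1HF150 had 312 to 1222 CPM of Reg2 and 129 to 477 of Reg3b, and mice 1HF151, 1HF152, 1HF153 and 1HF154 had 22.3 to 66 and 5.44 to 17.9. The acinar share of reads was 4.3 to 11% in the first 4 and 0.259 to 1.7% in the other 4. Over the groups Prss2 ran from 166 to 7178 CPM (median 1916) on HFHS and from 203 to 1132 (median 634) on RC (2.11, adjusted p = 0.0502), and Prss1 rose by 3.37 (adjusted p = 0.00263). Of the acinar list 5 of 32 genes rose, with a median of 1.77, and of the intestinal list 6 of 9, with a median of 5.24, where mice 1HF147, 1HF148 and 1HF150 held 838, 7.1 and 7.72 CPM of the 3 summed intestinal genes. With the acinar mean as a covariate Reg2 (3.06, adjusted p = 0.0107), Reg3a (3.52, 0.0456), Reg3b (3.44, 0.0332) and Reg3g (4.45, 0.016) were still called and Reg3d (1.18, 0.113) was not. Without the 79 libraries with intestinal genes, which left 5 HFHS mice, no member was called, with values of 3.50 for Reg2 (adjusted p = 0.404), 4.11 for Reg3a (0.231), 3.25 for Reg3b (0.611), 1.58 for Reg3d (1) and 2.06 for Reg3g (1). In that smaller set 0.00605% of all genes were called. Leaving out 1 mouse at a time kept every call except that of Reg3g, which was 2.92 (adjusted p = 0.316) without 1HF147. With limma on the authors' table Reg2, Reg3a and Reg3b were called, and Reg3d and Reg3g were not.

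At day 90 Reg3b and Reg3g were higher on HFHS in C57Bl/6J, against 0.218% of all genes. Reg3b ran from 2.81 to 166 CPM (median 7.62) in 8 HFHS mice and from 0.659 to 5.58 (median 1.12) in 7 RC mice (4.56, SE 1.08, adjusted p = 0.0204). Reg3g ran from 0.155 to 48.9 CPM (median 1.31) against 0 to 0.525 (median 0.254) (4.63, SE 1.08, adjusted p = 0.016). The high end of both was mouse 1HF160, which also held 215 CPM of summed intestinal genes, and the lower HFHS mice overlapped those on RC. Reg2, at 13.2 to 487 CPM (median 38) against 1.54 to 70 (median 5.16), and Reg3a, at 0 to 44.1 (median 0.923) against 0.0347 to 1.84 (median 0.0985), missed the threshold (adjusted p = 0.618 and 0.0872). Prss2 differed by 0.96 (adjusted p = 0.896), with medians of 497 and 350 CPM.

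Of the 15 libraries at that day, 4 were nearest to another strain, and 2 of these, 1RC133 and 1RC134, held the highest Reg2 on RC, at 66 and 70 CPM. Without them Reg2 was called at 4.91 (adjusted p = 0.026), Reg3a at 5.79 (0.0268) and Reg3b at 5.57 (0.0268), and Reg3g was at 4.97 (0.0722). With the acinar covariate Reg3b (3.73, 0.042) and Reg3g (3.98, 0.0358) were called. Without the libraries with intestinal genes, which left 4 mice on each diet, they were at 4.92 (0.423) and 2.92 (1). Leaving out 1 mouse at a time gave 3.83 to 5.08 for Reg3b, lost in 8 of 15, and 2.99 to 4.86 for Reg3g, lost in 4. Limma on the authors' table called no member in C57Bl/6J at that day.

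At day 10 no member passed in C57Bl/6J, where 0.0182% of all genes did, though 3 members had an unadjusted p under 0.05. Reg3a ran from 1.21 to 11.9 CPM (median 3.99) in 6 HFHS mice and from 0 to 0.71 (median 0.0947) in 6 RC mice, and Reg3b from 3.59 to 38.3 (median 11.4) against 0.54 to 2.7 (median 0.965). In both, every HFHS mouse was above every RC mouse, with an adjusted p of 1 for changes of 4.29 and 3.57, and 0.806% of all genes were likewise above. Reg2 ran from 19.1 to 122.6 CPM (median 55.9) against 1.76 to 27.7 (median 2.44), where 4 of 6 HFHS mice lay above all on RC. The acinar shares overlapped, and no intestinal sum on HFHS was above 0.0619 CPM. At day 2, where 0.145% of all genes were called, 3 members had an unadjusted p under 0.05 and none passed, while within the GC bound Reg3a did (-4.20, adjusted p = 0.0365). The RC group there held mouse 1RC114, with 112.9 CPM of Reg3b and 221 of Reg2 against group medians of 1.2 and 9.11.

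**Figure D4:**
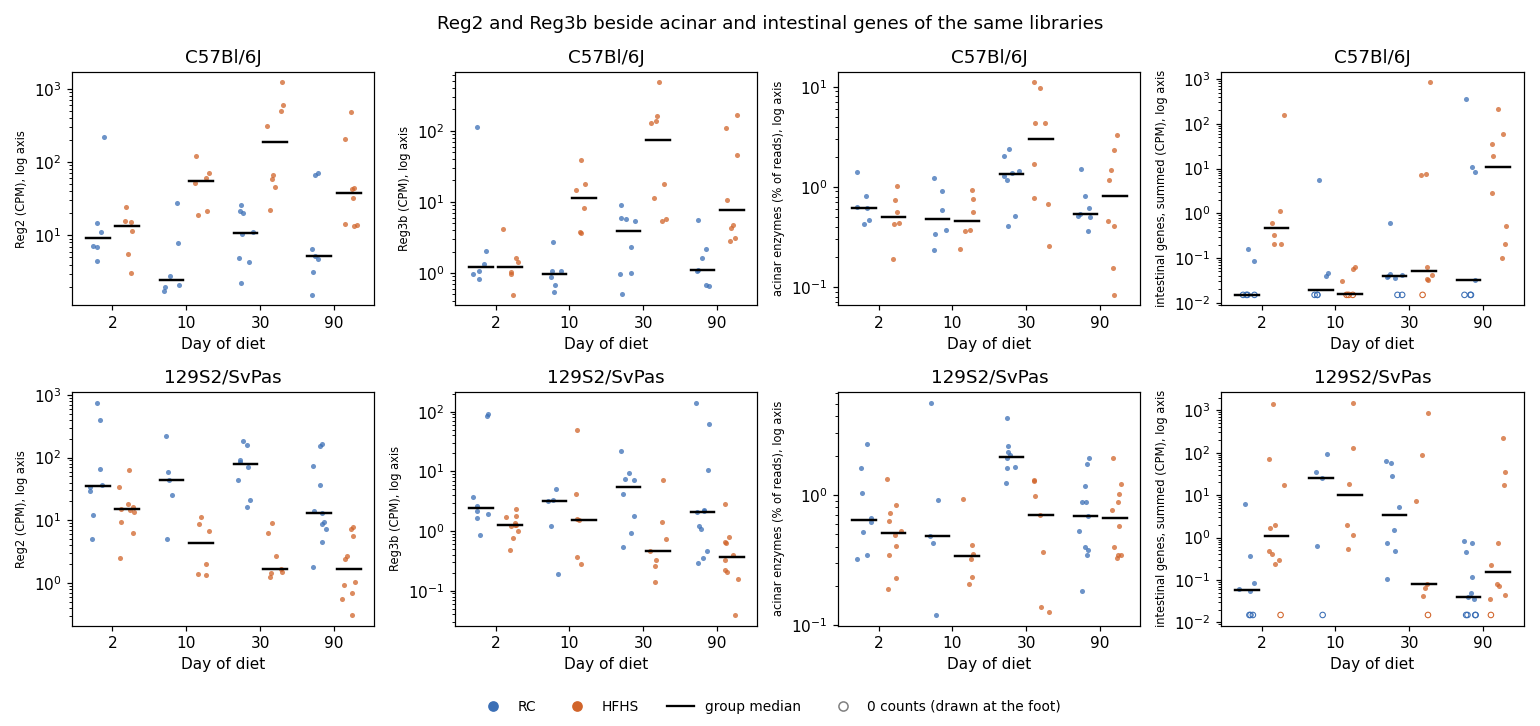
Reg2 and Reg3b (CPM), the acinar enzyme share (percent of reads) and the 3 summed intestinal genes (CPM) in each library of the strains labelled C57Bl/6J (top) and 129S2/SvPas (bottom), by day and diet, all on log axes. Bars are group medians and open circles are libraries with 0 counts. Reg2 medians at day 30 were 189 (HFHS) and 10.8 (RC) CPM in C57Bl/6J, and 1.66 and 77.7 in 129S2/SvPas.

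In 129S2/SvPas mice the called members showed the opposite order of the diets. At day 30 Reg2 ran from 1.24 to 9.16 CPM (median 1.66) in 7 HFHS mice and from 16.6 to 186 (median 77.7) in 8 RC mice, a log2 fold change of -4.60 (SE 0.982, adjusted p = 0.00336). Reg3d ran from 0.276 to 2.84 CPM (median 1.11) against 4.09 to 16.2 (median 8.15), a change of -2.72 (SE 0.718, adjusted p = 0.0423). For both genes every HFHS mouse was below every RC mouse, as for 0.188% of all genes. These 2 members were called against 0.515% of all genes.

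The acinar genes differed in the same mice, with a summed level of 1260 to 13064 CPM (median 7050) on HFHS and 12216 to 38884 (median 19555) on RC, 2 of 32 genes lower (Prss3 at -3.41 and Pla2g1b at -2.65) and a list median of -1.48. Prss2 ran from 76.6 to 902 CPM (median 454) against 725 to 2248 (median 1122), and its change of -1.34 did not pass (adjusted p = 0.508). With the acinar covariate Reg2 was at -1.89 (adjusted p = 0.208) and Reg3d at -0.84 (0.294), and neither was called. Without libraries with intestinal genes, which left 4 mice on each diet, they were at -3.97 (0.358) and -2.88 (0.43). Leaving out single mice kept Reg2 between -5.06 and -4.33, with adjusted p up to 0.0185, and lost Reg3d in 11 of 15 cases.

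At day 90 Reg2, Reg3a, Reg3b and Reg3g fell on HFHS in 129S2/SvPas, against 0.764% of all genes. Reg2 ran from 0.311 to 7.94 CPM (median 1.71) in 10 HFHS mice and from 1.83 to 167 (median 13.3) in 11 RC mice (-3.76, SE 0.793, adjusted p = 0.00276). Reg3b ran from 0.0392 to 2.81 CPM (median 0.364) against 0.288 to 142.2 (median 2.09) (-4.84, SE 0.937, adjusted p = 0.00077). The groups overlapped, and the RC mice reached far higher. Reg3a ran from 0 to 0.896 CPM (median 0.0402) against 0.0327 to 61.7 (median 0.19) (-4.83, SE 0.948, adjusted p = 0.000937). Reg3g ran from 0.0392 to 0.469 CPM (median 0.175) against 0.0389 to 34.8 (median 0.15) (-3.80, SE 0.871, adjusted p = 0.00782), so that its medians had the opposite order to its fold change. Reg1, from 34.5 to 333 CPM (median 56.8) against 23.9 to 297 (median 138.7), and Reg3d (-1.61, adjusted p = 0.2) were not called.

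No acinar gene was called in these mice. Prss2 ran from 218 to 1189 CPM (median 444) on HFHS and from 106 to 1232 (median 412) on RC, the median over the 32 acinar genes was -0.08, and with the acinar covariate Reg2 (-4.01, adjusted p = 2.64e-06), Reg3a (-5.53), Reg3b (-5.18) and Reg3g (-4.42) were called, joined by Reg3d (-1.97). Without libraries with intestinal genes, which left 7 HFHS and all 11 RC mice, the values were -3.53 (adjusted p = 0.0348), -5.61, -4.71 and -3.92, all called. Much rested on mouse 6RC89, whose label carries an editing mark and which held 61.7 CPM of Reg3a, 142.2 of Reg3b and 34.8 of Reg3g. Without it Reg2 (-3.34, adjusted p = 0.0144) and Reg3b (-3.64, 0.0226) were called, and Reg3a (-2.82, 0.113) and Reg3g (-1.37, 0.774) were not. Tested with limma on the authors' normalized table, only Reg2 passed (-3.29, adjusted p = 0.0366).

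At day 2, 4 members were called lower on HFHS in the libraries labelled 129S2/SvPas, Reg2 (-3.02), Reg3a (-3.74), Reg3b (-4.03) and Reg3d (-2.91), against 20.6% of all genes. These rested on libraries that did not match the strain. Mice 6RC5 and 6RC6, labelled 129S2/SvPas and nearest to C57Bl/6J, held 752 and 400 CPM of Reg2 and 83.5 and 90.9 of Reg3b, where the median of the 8 RC libraries was 35.2 and 2.4. Without the mismatched libraries, which left 8 HFHS and 5 RC mice, the values were -0.57, -0.75, -0.69 and -1.05 and none was called (adjusted p from 0.951 to 1). At day 10, with 6 HFHS and 5 RC mice, 0.097% of all genes were called and no member was, with 3 at an unadjusted p under 0.05. Of these, Reg2 and Reg3d (-2.70) were lower on HFHS and Reg3g (2.57) was higher. Reg2 ran from 1.33 to 11.4 CPM (median 4.34) on HFHS and from 5.05 to 223 (median 43.6) on RC (-3.84, adjusted p = 0.117), and was called within the GC bound (-3.83, 0.0164).

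In BALB/cJ the calls at day 10 came with a rise of Prss2. At that day Reg1 ran from 29 to 2386 CPM (median 414) on HFHS and from 16.1 to 461 (median 127.6) on RC (2.13, SE 0.767, adjusted p = 0.043), and Reg3d from 0.477 to 39.1 (median 7.41) against 0.322 to 7.08 (median 2.35) (2.16, SE 0.763, adjusted p = 0.0384). The groups overlapped, and 14.9% of all genes were called. Prss2 rose by 3.07, from 40 to 746 CPM (median 199) on RC to 78.8 to 7324 (median 1453) on HFHS, and with the acinar covariate Reg1 was at -0.45 and Reg3d at -0.35, neither called. Neither was called with limma, with the Prss1 covariate or without libraries with intestinal genes (2.81, adjusted p = 0.0706, and 2.87, 0.0824). Leaving out single mice gave 1.05 to 2.54 for Reg1 and 1.21 to 2.53 for Reg3d, and both were lost in 7 of 12 cases, with the lowest values without mouse 3HF16. At day 2 Reg2 ran from 18.4 to 201 CPM against 4.35 to 65.4 (median 13.5) (2.26, SE 0.953, adjusted p = 0.0294) where 66.6% of all genes were called, and all 6 HFHS libraries lay beyond the GC bound. That call was lost in 6 of 12 cases when single mice were left out, with limma on the authors' table, and without libraries with intestinal genes (1.94, adjusted p = 0.139). With the acinar covariate Reg1, Reg2, Reg3b and Reg3d were called at that day. At day 30 all 6 members had negative values, from -2.87 to -1.84, and an unadjusted p under 0.05, but none passed (adjusted p from 0.197 to 0.369) where 0.176% of all genes did, and within the GC bound Reg1, Reg2, Reg3d and Reg3g were called where 12.3% of all genes were. At day 90, with 2.7% of all genes called, no member reached an unadjusted p under 0.05.

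In A/J Reg3b was called higher on HFHS at day 2 (5.27, SE 1.40, adjusted p = 0.00274), where 31.7% of all genes were called, though its medians were 0.0546 CPM on HFHS and 0.171 on RC. The value came from mouse 4HF3, with 78.6 CPM of Reg3b and 2870 CPM of summed intestinal genes, and without libraries with intestinal genes it was -0.68 (adjusted p = 0.741). Reg3b was not called there with limma on the authors' table. With the acinar covariate Reg1, Reg3a, Reg3b and Reg3g were called at that day, and without libraries with intestinal genes only Reg1 was. No member was called at day 10 (8.6% of all genes), day 30 (0.0485%) or day 90 (0.0182%), and none had an unadjusted p under 0.05 there. In AKR/J at day 90 Reg3a ran from 0.0544 to 28.9 CPM (median 0.614) on HFHS and from 0.0295 to 2.11 (median 0.166) on RC (3.25, SE 0.985, adjusted p = 0.0142), and Reg3b from 0.843 to 86.9 (median 2.61) against 0.354 to 7.69 (median 1.35) (2.79, SE 0.947, adjusted p = 0.0332), where 12.4% of all genes were called. Prss2 stood the other way there, with medians of 189 CPM on HFHS and 428 on RC (-1.21, adjusted p = 0.204). Without mouse 5HF41, which held the highest level of both, Reg3a was at 1.32 (adjusted p = 0.398) and Reg3b at 0.98, and neither was called. Limma on the authors' table called neither as well. With the acinar covariate Reg2, Reg3a, Reg3b and Reg3d were called, and without libraries with intestinal genes Reg3a, Reg3b and Reg3g were. At day 2 (6.89% of all genes), day 10 (0.145%) and day 30 (0.182%) no AKR/J comparison of a member was called, and 1, 0 and 0 members had an unadjusted p under 0.05. Reg3g at day 2 was called lower with the acinar covariate (-3.77, adjusted p = 0.00997) and within the GC bound (-2.96, 0.0452).

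In DBA/2J no member was called at any day by edgeR over all libraries without a covariate. The share of all genes called was 0.0727% at day 2, 0% at day 10, 25.8% at day 30 and 55.4% at day 90, and 0, 1, 1 and 0 members had an unadjusted p under 0.05. At day 90 Reg2 ran from 0.164 to 24.6 CPM (median 6.57) on HFHS and from 0.265 to 44.7 (median 1.27) on RC, and limma on the authors' table called 4 members there. At that day only 1 of 8 RC libraries lay within the GC bound, against 7 of 8 on HFHS. Diet and GC dependence can thus hardly be told apart in any of the calls at that day. With the acinar covariate Reg1 was called at day 30 (-0.90, adjusted p = 0.02, against 25.7% of all genes), and Reg1 (-0.81, 0.0161), Reg3a (2.51, 0.00357) and Reg3g (1.98, 0.0228) at day 90 (56%). Without libraries with intestinal genes Reg3b (2.95, 0.0452) and Reg3g (2.73, 0.0313) were called at day 30 (25.8%), where over all libraries they were at 0.37 and -0.42, and Reg3g at day 90 (2.59, 0.0165, against 54.8%). Limma called no member in the other groups of strain and day in which edgeR called none.

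Averaged over the 6 strains, 1 diet difference of a member was called, that of Reg3a at day 10, higher on HFHS by 1.81 (SE 0.478, adjusted p = 0.028), against 0.946% of all genes. It was lost with limma on the authors' table (1.40, adjusted p = 0.151) and without libraries with intestinal genes (2.49, 0.0683), where Reg3b (2.24, 0.0237) and Reg3g (1.80, 0.0418) were called against 1.58% of all genes. Within the GC bound Reg3b was called beside it (3.89%). Reg3b at that day was at 1.39 (adjusted p = 0.159) and Reg2 at 0.87 (0.521). No member was called at day 2 (41% of all genes), day 30 (9.93%) or day 90 (16.6%), where 1, 1 and 0 members had an unadjusted p under 0.05. Limma called Reg1 at day 30 and the DESeq2 Wald test Reg3g at day 2. At day 2 Reg1 was also called with the acinar covariate (0.44, adjusted p = 0.0132, against 30.7% of all genes) and Reg3g without libraries with intestinal genes (-1.39, 0.0498, against 36%). The test of whether the diet effect differed between the strains called 5 of 6 members at day 2 (72.3% of all genes), Reg2 and Reg3d at day 10 (8.73%), all 6 at day 30 (6.25%) and 5 at day 90 (50.3%). Its smallest adjusted p was 1.52e-08, for Reg2 at day 30, and for Reg3b at day 90 it was 5.78e-08. At day 30 the same test called only Reg2 and Reg3g with the acinar covariate, and only Reg2 without libraries with intestinal genes.

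Between day 2 and day 90 of feeding, Reg3g rose on HFHS by 1.14 (SE 0.492, adjusted p = 0.0366) where 61.1% of all genes were called, and no member was called on RC, where 23.2% were and no member had an unadjusted p under 0.05. The HFHS call of Reg3g was lost with the acinar covariate (0.64, adjusted p = 0.343), where Reg1 was called lower (-0.94, 1.17e-10), and with the GC slope covariate (1.14, 0.0685). Prss2 rose on HFHS over the same time by 0.76 (adjusted p = 0.00835).

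Genes that act upstream of the Reg3 genes in gut and pancreas were read in the same comparisons. In C57Bl/6J at day 30 none of 12 receptors and signalling genes of the interleukin 6 and 22 families was called (median 0.06), with Il22ra1 at 1.81 (adjusted p = 0.222). None of 14 STAT3 target and acute phase genes was called either (median 0.04), with Nupr1, a stress factor of acinar cells, at 0.98 (adjusted p = 0.163). In C57Bl/6J at day 90, where 0.218% of all genes were called, Lcn2 of that list fell by 2.64 (adjusted p = 0.0226), opposite to Reg3b and Reg3g. The other genes of the list are not given for that day, nor is Lcn2 without the libraries nearest to another strain. In 129S2/SvPas at day 90, 5 of the 14 STAT3 target and acute phase genes fell with the Reg genes (list median -0.29), where 0.764% of all genes were called. Among them were Timp1 (-2.68, adjusted p = 1e-06), the acute phase gene Saa3 (-4.50, 0.000276), Il1rn (-2.59, 0.0014) and Hp, haptoglobin (-2.09, 0.0359). In the same mice 2 of 11 macrophage and neutrophil genes fell, Lyz2 (-1.66, adjusted p = 0.0201) and Emr1 (-0.86, 0.0206), and none of the 12 receptor and signalling genes was called. Values of these genes without mouse 6RC89, on which much of the Reg difference there rested, are not given here. These lists were chosen with earlier results of the data known, and their part in the Reg differences was not tested. The hormone genes Ins1, Ins2, Gcg, Sst and Ppy were not called in C57Bl/6J at days 30 and 90 or in 129S2/SvPas at days 30 and 90, with log2 fold changes from -0.36 to 0.40.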

How the data were processed

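Total RNA of islets from 338 mice was sequenced with the TruSeq RNA v2 kit, which keeps no strand, per the labels. The tools named in the submitters' processing notes are HTSeq 0.5.3p3, edgeR, TopHat 1.3.3 and SAMtools 0.1.16, with build mm9, an assembly of the C57BL/6J genome. What that means for reads of the 5 other strains was not tested. The deposited table of raw counts held whole reads per gene for 21382 genes, and a second deposited table held log2 values that the authors had scaled by 1 factor per library, for 14826 genes. The raw counts were used throughout, the second table as an alternative.

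Samples were grouped by strain, diet and day as labelled. CPM is the count scaled to 1000000 reads assigned to genes. Counts were filtered by filterByExpr over the 48 groups, given TMM factors, and modelled in edgeR 4.0.16 (R 4.3.3, robust quasi-likelihood, prior count 2), 1 mean per group. Contrasts were HFHS minus RC in each strain and day and as the mean of the 6 strains, the strain by diet interaction, each strain minus the other 5 averaged (RC mice), and day 90 minus day 2. The p-values were Benjamini-Hochberg adjusted over 16498 genes. The standard error (SE) is the log2 fold change over the square root of F and is given only where a call was made. Correlations used TMM log2 CPM with group means removed and 100000 permutations. The fits were checked on simulated counts with known changes. Planned ratios to Prss1 were replaced by ratios to Prss2, because Prss1 had a count in only 196 libraries, and the log2 gap of 5 planned for genes that separate strains was lowered to 3, because it left 2 genes.

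Genes named are the members, Prss1, the hormone genes, up to 4 genes of a list with the smallest p in a comparison and the 5 genes nearest to each member (mean CPM at least 1). Prss2, Reg4, Extl3, Il22ra1 and the 3 intestinal genes were named after their values were seen. The gene lists were acinar enzymes, acinar transcription factors, receptors, cytokines and targets of the interleukin 6 and 22 pathways, and markers of beta, other endocrine, duct, intestinal, macrophage and neutrophil, lymphocyte, stellate and endothelial cells. The members, the lists and the tests were chosen with earlier results of these data known. Mouse numbers shared by the 2 diets do not mark a common litter or day in the labels, and same-numbered mice did not deviate together (34 of 104 pairs had a correlation over 0.1, median -0.00289). Alternatives were DESeq2 1.42.0 size factors and Wald test, limma 3.58.1 on the authors' table, no filter, covariates for Prss1, the acinar mean and GC slope, subsets of libraries, and single mice left out.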

Additional observations from a re-analysis of the deposited data

Results flagged for a closer look

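In 25 of 282 sets of a member in a group of 4 to 10 mice, 1 mouse stood farther from the rest than the 95% limit of Dixon's test on log2 CPM, where chance gives about 1 in 20. These were 24 high values and 1 low value in 15 mice. Mouse 1RC114 (C57Bl/6J, RC, day 2) was high for all 6 members, at 426 CPM of Reg1 (the other 5 at most 160), 221 of Reg2 (14.6), 47.4 of Reg3a (0.25), 112.9 of Reg3b (2.05), 13.9 of Reg3d (2.75) and 36.6 of Reg3g (0.236), with no count of the intestinal genes and 1.4% of reads in acinar genes against a median of 0.62%. Mouse 4HF3 (A/J, HFHS, day 2) held 6.37 CPM of Reg3a, 78.6 of Reg3b and 1.84 of Reg3g, with 2870 CPM of the summed intestinal genes. Mouse 5RC48 (AKR/J, RC, day 90) held 680 CPM of Reg1, 56.4 of Reg2 and 10.3 of Reg3d, with 3.09% acinar reads against a median of 0.735%. Mouse 4RC13 (A/J, RC, day 10) was high for Reg2 (0.895 CPM) and Reg3a (0.285 CPM). Mouse 5HF5 (AKR/J, HFHS, day 2) was low for Reg2, at 6.6 CPM where the others had 29.6 to 41.

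Single members stood out in 10 other mice. High Reg2 was seen in 2RC119 (44.7 CPM), high Reg3a in 3HF32 (0.336), 3RC27 (4.07) and 3RC47 (0.638), and high Reg3b in 3HF47 (2.79) and 2RC114 (17.1). High Reg3g was seen in 6HF1 (3.15 CPM), 5RC42 (4.11), 3RC44 (0.199) and 2HF111 (2.27), and these 4 held 1409, 153.4, 13.7 and 406 CPM of summed intestinal genes.

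The effect of the diet differed between strains by the interaction test of edgeR in 18 of the 24 member and day combinations. Of all genes 72.3%, 8.73%, 6.25% and 50.3% were called at days 2, 10, 30 and 90. The adjusted p for Reg1 was 0.00901 at day 30. For Reg2 it was 0.000611, 0.00407, 1.52e-08 and 0.000133 at days 2, 10, 30 and 90, and for Reg3d 0.00169, 0.0144, 2.53e-05 and 0.0137. At days 2, 30 and 90 it was 5.71e-05, 9.28e-05 and 2.71e-07 for Reg3a, 1.78e-06, 0.000276 and 5.78e-08 for Reg3b, and 0.0177, 4.59e-06 and 5.08e-06 for Reg3g.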

How the results depend on the processing

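Averaged over strains, 1 diet call of a member was made, against 2 with the acinar covariate, with the DESeq2 Wald test and within the GC bound, and 3 without libraries with intestinal genes. Within strains the total of 23 calls became 12 with limma on the authors' table and 15 without intestinal libraries. Both totals include calls that the main fit did not make. With limma these were the 4 in DBA/2J at day 90. Without intestinal libraries they were Reg1 in A/J at day 2, Reg3g in AKR/J at day 90, and those in DBA/2J at days 30 and 90. No C57Bl/6J call was left without intestinal libraries. The acinar covariate and the GC bound each gave more than 23. Within the GC bound, calls were gained in BALB/cJ at day 30, among others, and lost in 129S2/SvPas at day 2. The acinar covariate gained calls in A/J and BALB/cJ at day 2, among others, and lost those in 129S2/SvPas at day 30. The 18 interaction calls became 10 without intestinal libraries. For day 90 minus day 2, 1 call became 0 with the GC slope covariate, 2 with the Prss1 covariate, 4 within the GC bound and 2 without intestinal libraries. No BALB/cJ library of HFHS at day 2 lay within the GC bound, so means within that bound that need this group leave BALB/cJ out. The 16 strain calls were 11 to 18 under all alternatives run. Leaving out single mice gave 21 to 24 calls within strains and 1 in every case for the diet over strains and for time. Reg3b in A/J at day 2 ranged from -0.78 (without mouse 4HF3, reversed) to 5.68 on leaving out single mice and was reversed, at -0.68, without intestinal libraries, while Reg1 and Reg3d in BALB/cJ at day 10 reversed to -0.45 and -0.35 with the acinar covariate. The cause of these changes was not tested.

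The replicate block, over mice whose diet groups share numbers, called 5 members lower on HFHS at day 30: Reg1 (-1.40), Reg2 (-2.27), Reg3b (-1.20), Reg3d (-1.45) and Reg3g (-1.02). Only 4 strains had such numbers, so this mean leaves out C57Bl/6J and DBA/2J and is not that of the 6 strains. Of all genes 11.3% were called with the block. The same mice without the block gave the same 5 calls, against 17.2% of all genes, and Reg3a at day 10 was lost in both (0.77 and 1.21). The numbers are not a pairing by design. Intestinal libraries, the acinar covariate within strains, most single mice left out, Prss2 and the unblocked subset were chosen after seeing the data. The relation to Prss1 stayed positive and past the threshold for all 6 members in every alternative run. No interaction test with limma or DESeq2 and no DESeq2 test within strains was run. Fits with a covariate or without 1 mouse kept the dispersions of the full fit. Counts near 0 limit Reg3a and Reg3g, where a difference may not be detectable at this depth.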

Other observations

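On HFHS the strains stood in another order than on RC. Over the 4 time points, the median of Reg2 on HFHS was 43.8 CPM in C57Bl/6J (3.07 to 1222, n = 28) and 7.89 in AKR/J, 5.61 in 129S2/SvPas, 3.96 in BALB/cJ, 1.43 in DBA/2J and 0.316 in A/J, and the ranges of all 6 overlapped except those of C57Bl/6J and A/J. On RC the median of Reg2 had been highest in 129S2/SvPas. The median of Reg3b on HFHS was likewise highest in C57Bl/6J, at 6.94 CPM, against 0.147 to 2.22 in the other strains. No test between strains was run on HFHS.

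The proportion of Reg3b to Reg1 in the same library ranged widely within each group. Reg3b was 0.00968 of Reg1 at the median of C57Bl/6J on RC and 0.0561 on HFHS, with ranges of 0.0041 to 0.265 and 0.00585 to 0.318. In 129S2/SvPas the medians were 0.0146 on RC and 0.0063 on HFHS. These ratios of read counts are not corrected for transcript length and were not tested.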
